A study of Mus musculus with 9 samples.

Results

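The genes described here are 10 transcription factor genes of lymphoid development, given as a fixed list and read as rows of the deposited count table. They are Ikzf1, Satb1, Tcf3, Tcf4, Ebf1, Mef2c, Ets1, Sox4, Id2 and Id3, 10 of 47480 gene rows, and all 10 were found. Early blood progenitors take up a lymphoid programme when factors such as Ikaros (Ikzf1), E2A (Tcf3) and EBF1 switch on B and T cell genes in cells that still hold other options. E proteins, which Tcf3 and Tcf4 encode, bind DNA as dimers at short E-box motifs. Id proteins, which Id2 and Id3 encode, pair with E proteins but lack the DNA-binding part, and so keep them off DNA.

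RNA of primary hematopoietic cells of C57BL/6 mice was sequenced in 9 libraries, in 4 groups. There were 3 libraries of MP polysomal RNA, 2 of MP total RNA, 2 of LSK polysomal RNA and 2 of LSK total RNA. The labels call MP progenitor cells and LSK stem cells, and do not spell out the abbreviation MP. LSK is the usual name of lineage-negative cells that carry Sca-1 and Kit on the surface. The age and number of mice are not given. All cells, in every group, had been held in cycloheximide, which stops ribosomes on their messages, at 100 ug/ml for 10 min. Lysates were spun through sucrose gradients of 10 to 60% that were cut into 10 fractions. Fraction 7 gave the polysomal RNA, and the total RNA came from lysate that had not gone onto a gradient. Trizol was used for extraction and a SMARTer protocol for amplification. The labels do not say which libraries came from separate animals or sorts, nor which total and polysomal libraries share a lysate. The p-values below therefore reflect only how far these libraries spread, and that spread may be technical.

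Total counts ranged from 27342343 to 34807735 per library. The sort marker gene Ly6a, which encodes Sca-1, lay between 0.159 and 1.26 CPM (counts scaled to a common library size) in the 5 MP libraries and between 50.2 and 109.6 CPM in the 4 LSK libraries. Kit overlapped, with 493 to 1290.0 CPM in MP and 330.2 to 1595 CPM in LSK libraries. Markers of other cell types were summed per library: 8 markers of red cell precursors summed to 3863 to 6321 CPM in MP and 336 to 649 CPM in LSK libraries. The 6 macrophage markers summed to 76.5 to 473 CPM in MP and 7.03 to 89.7 CPM in LSK, but most of the MP sums was Vcam1 (72.8 to 452 CPM), while the complement genes C1qa, C1qb and C1qc lay at 0.162 to 1.23 CPM in MP and 0.349 to 26.9 CPM in LSK. In the mean of both fractions Vcam1 rose by 3.60 on the log2 scale (SE 0.55, adjusted p = 0.00478) and C1qb fell by 2.79 (SE 0.70, adjusted p = 0.0343) in MP cells. Of the 6, 2 had positive and 4 negative values, Adgre1 a positive one (1.64, SE 0.55, adjusted p = 0.0955). C1qb averaged 16.5 CPM in LSK polysomal but 1.52 CPM in LSK total RNA. In total RNA alone its log2 fold change was -1.27 (SE 1.01, adjusted p = 0.586). The 13 T and natural killer cell markers summed to 495 to 981 CPM in MP and 389 to 740.0 CPM in LSK, most of it Nkg7, with Cd3e at most at 0.0499 CPM. Of the 7 tested, 5 had negative log2 fold changes of MP over LSK in the mean of both fractions and 2 had positive ones. The positive ones were Nkg7 (0.73, SE 0.32, adjusted p = 0.196) and Ncr1 (0.62, SE 0.73, adjusted p = 0.691). Called were 2 lower and 0 higher, against 7.37% and 2.72% of all genes. Lck (2.01 to 5.33 CPM in MP and 28.1 to 123 CPM in LSK) fell by 4.04 (SE 0.48, adjusted p = 0.00197) in MP cells. Klrb1c fell by 2.32 (SE 0.47, adjusted p = 0.0147). The 6 stroma markers summed to 2.13 to 5.91 CPM in MP and 2.65 to 7.77 CPM in LSK. Their part in the results below was not tested. Libraries also differed in base composition within groups. GC content was taken from the longest coding transcript, or from the longest transcript where none was coding. High-GC genes lay at or above its 90th percentile (57.8%) and low-GC genes at or below its 10th percentile (41.4%). Each gene's log2 deviation was taken from its mean over all libraries. A GC contrast was the median deviation of high-GC genes minus that of low-GC genes. It was -0.81, -0.11 and 0.32 in MP polysomal libraries 1 to 3 and 0.37 and 0.57 in MP total libraries 1 and 2. It was -0.65 and 1.42 in LSK polysomal libraries 1 and 2 and -0.80 and -0.16 in LSK total libraries 1 and 2. LSK polysomal 2 thus stood farthest from the rest, and 3 of the 4 LSK libraries lay below 0.

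Per length of message, Tcf3 led the members in MP cells and Mef2c in LSK cells, and Ebf1 and Id3 were lowest in every group. All 10 members passed the filter on low counts. Ebf1 and Id3 had counts of at least 10 in only 4 of 9 libraries each, 1 MP and 3 LSK. For a comparison between genes, CPM were divided by the length of the longest coding transcript. On this scale Tcf3 led the mean levels of MP polysomal RNA with 61.5 CPM per kb, ahead of Ikzf1 with 36.1 and Mef2c with 21.5. Id2 followed with 18.0, Tcf4 with 9.17, Ets1 with 6.03, Sox4 with 3.28 and Satb1 with 2.76, and Id3 and Ebf1 closed the order with 0.154 and 0.0242 CPM per kb. Only the steps down to Id3 and on to Ebf1 separated all MP polysomal libraries of neighbouring genes.

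In MP total RNA the order by level per kb was Tcf3 (86.0), Ikzf1 (26.4), Id2 (22.1), Mef2c (8.22), Sox4 (5.24), Ets1 (5.20), Tcf4 (3.39), Satb1 (2.29), Id3 (0.442) and Ebf1 (0.0581). In LSK polysomal RNA Mef2c came first with 43.8 CPM per kb, followed by Tcf3 (28.9), Ikzf1 (26.7), Tcf4 (15.8), Satb1 (9.89), Id2 (8.47), Ets1 (3.93), Sox4 (3.77), Id3 (1.01) and Ebf1 (0.108). In LSK total RNA Mef2c again came first with 51.7 CPM per kb, followed by Tcf3 (28.4), Ikzf1 (17.9), Tcf4 (17.2), Sox4 (16.7), Id2 (14.0), Satb1 (7.78), Ets1 (2.60), Id3 (0.682) and Ebf1 (0.169). Mef2c, Tcf3 and Ikzf1 overlapped as neighbours in both LSK groups, so their order there is not larger than the spread. In MP total RNA the libraries of Tcf3 and Ikzf1 as neighbours did not overlap, nor did those of Id2 and Mef2c. With the length of all exons joined, Mef2c ranked 3 in LSK polysomal and 2 in LSK total RNA, behind Ikzf1 in LSK polysomal and Tcf3 in LSK total RNA at rank 1.

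**Figure D1:**
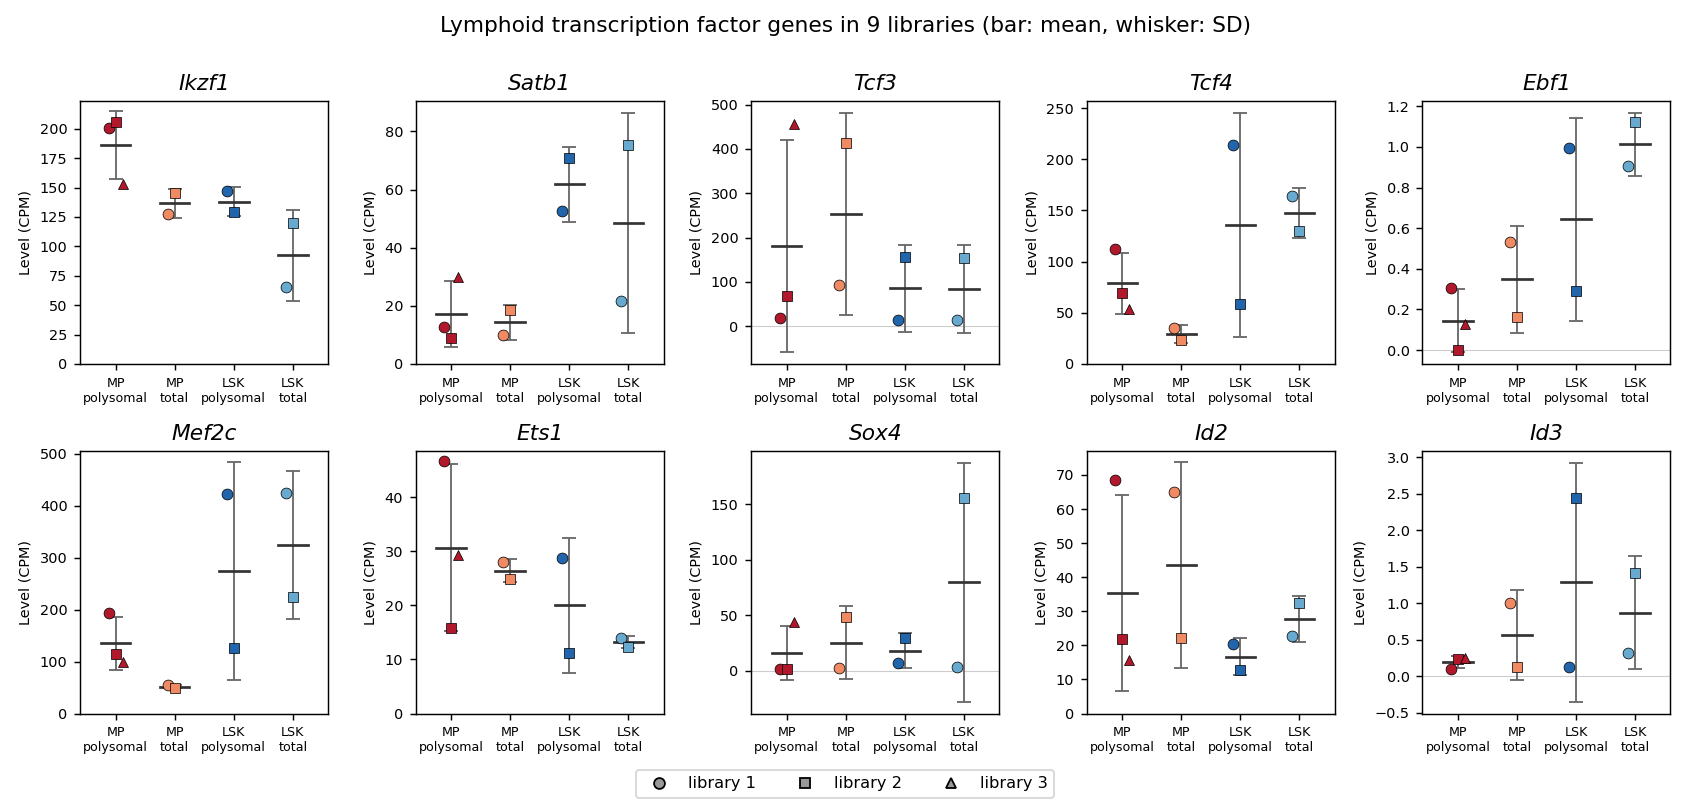
Level of each of the 10 genes in CPM (vertical axis) in the 9 libraries, by group (horizontal axis); points are libraries, with a shape per library number, bars are means and whiskers SDs. Mef2c averaged 51.6 CPM in MP total and 324.5 CPM in LSK total RNA, while the libraries of Tcf3 and Sox4 lay far apart within each group.

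Mef2c was the only member called between MP and LSK cells, and it was lower in MP cells. Taken as the mean of both fractions in edgeR's quasi-likelihood fit, Mef2c fell by 1.84 on the log2 scale in MP cells (SE 0.44, adjusted p = 0.0297). Tcf4 (-1.56, SE 0.45, adjusted p = 0.0597) and Satb1 (-1.80, SE 0.54, adjusted p = 0.0651) had nearly as large negative log2 fold changes that missed the threshold of 0.05. The count of 1 member lower and 0 higher stands beside 7.37% of the 16426 tested genes called lower and 2.72% called higher. Mef2c, Tcf4 and Satb1 had an unadjusted p under 0.05, as had 24% of all genes. In bulk RNA, fewer cells of a type and less RNA per cell cannot be told apart.

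Within each RNA fraction, 0 of 10 members passed edgeR's test between MP and LSK cells. On simulated data of the same design this test called 0% of 4-fold changes in either fraction, so a miss does not show equal levels. In total RNA the background was 0.816% of genes called lower and 0.274% called higher, and 2 members, Tcf4 and Mef2c, had an unadjusted p under 0.05, against 17.1% of all genes. DESeq2 called these 2 genes in total RNA, among 377 genes higher and 1094 lower, and limma called Mef2c alone, among 138 higher and 712 lower. In polysomal RNA the background was 2.83% called lower and 0.524% higher, 1 member, Satb1, had an unadjusted p under 0.05, against 17.8% of all genes. DESeq2 and limma called 0 members in polysomal RNA, where they called 529 and 164 genes higher and 1095 and 587 lower. These backgrounds changed when single libraries were left out. In total RNA edgeR called 0 genes without MP polysomal 1, MP polysomal 2 or MP polysomal 3. These libraries are not in that contrast but enter the same fit. In polysomal RNA it called 0 genes without MP polysomal 1 or MP polysomal 2. In all 3 comparisons 4 members had positive log2 fold changes (Ikzf1, Tcf3, Ets1 and Id2) and 6 had negative ones, where positive ones made up 49.8% of all genes in total RNA, 48.6% in polysomal RNA and 49.5% in the mean of both, and negative ones 50.2%, 51% and 50.5%. The median over the members was -1.08 in total RNA, -0.50 in polysomal RNA and -1.25 in the mean of both, where the medians of all tested genes were -0.01, -0.03 and -0.01.

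Libraries of total RNA did not overlap between MP and LSK cells for 6 members. MP total libraries lay above LSK total libraries for Ikzf1 and Ets1, as they did for 22.8% of all genes, and below them for Satb1, Tcf4, Ebf1 and Mef2c, as for 28.5%. In polysomal RNA the MP libraries lay above the LSK libraries for Ikzf1, as for 15% of genes, and below them for Satb1, as for 17.4%. With both fractions joined, 0 members separated the 5 MP from the 4 LSK libraries, against 4.34% of genes higher and 8.51% lower in MP.

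**Figure D2:**
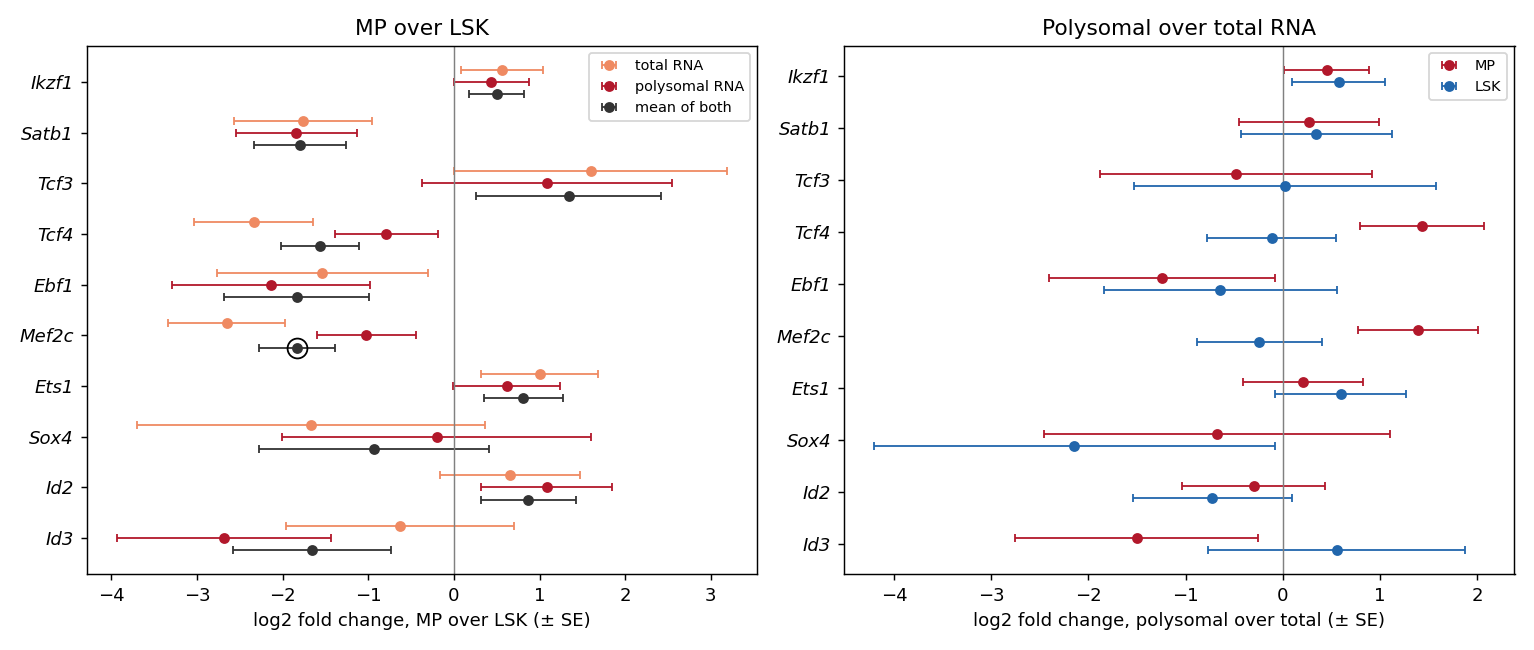
Log2 fold change of each gene with its standard error (horizontal axis) by gene (vertical axis), for MP over LSK cells on the left and polysomal over total RNA on the right; a ring marks an adjusted p under 0.05. The ring stands only at Mef2c in the mean of both fractions (-1.84), and Tcf4 and Mef2c had log2 fold changes of 1.43 and 1.39 for polysomal over total RNA in MP cells and of -0.12 and -0.24 in LSK cells.

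Ikzf1 encodes Ikaros, a zinc finger factor required for B, T and natural killer cells, and lies on chromosome 11 (GRCm38 chr11:11685003-11772926, plus strand). It had 200.4, 206 and 153 CPM in the MP polysomal libraries, against 147 and 129 CPM in the LSK polysomal libraries. It had 128 and 145 CPM in the MP total libraries, against 65.2 and 119.8 CPM in the LSK total libraries. Every MP library thus lay above every LSK library of the same fraction, although MP total and LSK polysomal libraries overlapped. MP over LSK, the log2 fold change was 0.43 in polysomal RNA (SE 0.44, adjusted p = 0.674), 0.56 in total RNA (SE 0.48, adjusted p = 0.612) and 0.50 in the mean of both (SE 0.32, adjusted p = 0.411). Ikzf1 was the steadiest member between libraries of a group, with a biological coefficient of variation (BCV) of 0.409, and only 2.49% of tested genes had a lower one.

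Satb1 encodes a chromatin organiser that T cell development needs (chr17:51736187-51833290, minus strand). It had 12.7, 8.92 and 30.1 CPM in MP polysomal RNA, against 52.5 and 71.0 CPM in LSK polysomal RNA. In total RNA it had 10.1 and 18.5 CPM in MP and 21.8 and 75.3 CPM in LSK. MP libraries lay below LSK libraries in each fraction, and LSK total 1 was the single LSK library under the highest MP library. The log2 fold changes of MP over LSK were -1.84 in polysomal RNA (SE 0.71, adjusted p = 0.205) and -1.76 in total RNA (SE 0.80, adjusted p = 0.303). Exons of Satb1 overlap Gm36931 on the same strand and Gm6934 on the opposite strand, and the strand setting of the counting is not given, so their reads cannot be told apart.

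Tcf3 encodes the E protein E2A, a starter of B cell development (chr10:80409514-80433647, minus strand). Its level was 19.0, 68.9 and 456 CPM in MP polysomal RNA and 15.3 and 155 CPM in LSK polysomal RNA. It was 92.9 and 414 CPM in MP total RNA and 13.9 and 154 CPM in LSK total RNA. Libraries of a group differed more than the groups did, by 24.1 times in MP polysomal RNA and by 11.1 times in LSK total RNA, and the populations overlapped. In the mean of both fractions the log2 fold change was 1.34 (SE 1.08, adjusted p = 0.53). The BCV of Tcf3 was 0.982, above that of 94.7% of tested genes.

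Tcf4 encodes E2-2, the E protein that directs plasmacytoid dendritic cell development (chr18:69343356-69689079, plus strand). It had 112, 69.7 and 53.9 CPM in MP polysomal RNA, against 213.5 and 58.3 CPM in LSK polysomal RNA. It had 35.2 and 23.0 CPM in MP total RNA, against 164 and 130.2 CPM in LSK total RNA. The populations separated in total RNA and overlapped in polysomal RNA, where LSK polysomal 2 lay among the MP libraries. For MP over LSK the log2 fold change was -2.34 in total RNA (SE 0.70, adjusted p = 0.128) and -0.79 in polysomal RNA (SE 0.60, adjusted p = 0.552). A list of 5 plasmacytoid dendritic cell markers summed to 0.606 to 1.20 CPM in MP and 4.46 to 10.5 CPM in LSK libraries. The defining marker Siglech was at most at 0.249 CPM in any of the 9 libraries, while Ly6d had at most 0.376 CPM in MP and 2.12 to 7.52 CPM in LSK. In the mean of both fractions all 3 tested markers were lower in MP with an unadjusted p under 0.05, against 24% of all genes. Of these Ly6d alone was called (-4.81, SE 0.92, adjusted p = 0.0115). The part of such cells in the Tcf4 level was not tested.

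Ebf1 encodes early B cell factor, which with E2A and Pax5 sets the B cell programme (chr11:44617317-45008091, plus strand). Its counts were 9, 0 and 4 in MP polysomal libraries and 30 and 7 in LSK polysomal libraries, and 16 and 5 in MP total and 31 and 45 in LSK total libraries. These are at most 0.533 CPM in MP and 1.12 CPM in LSK, and the count of 0 in MP polysomal 2 allows up to 0.0991 CPM, 3 counts, by counting error alone. The MP total libraries lay below the LSK total libraries and the polysomal libraries overlapped. The log2 fold change was -1.54 in total RNA (SE 1.23, adjusted p = 0.59) and -2.14 in polysomal RNA (SE 1.15, adjusted p = 0.38).

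Summed markers of mature B lineage cells were lower in MP than in LSK libraries. In the mean of both fractions 12 of the 13 B cell markers had negative log2 fold changes, against 50.5% of all genes. Called lower were 5, against 7.37% of all genes, and Bank1 had a positive value (0.46, SE 0.68, adjusted p = 0.768). The 13 B cell markers summed to 33.2 to 59.4 CPM in MP libraries and to 198 to 2345 CPM in LSK libraries, at most 4 of them over 1 CPM in an MP library and at most 9 in an LSK library. Igkc, an immunoglobulin light chain gene, took 110.6 to 2245 CPM of the LSK sums, while the defining genes Pax5 and Ms4a1 stayed at or under 0.54 and 1.10 CPM in all libraries. The 3 plasma cell markers summed to 1.33 to 4.14 CPM in MP and 28.1 to 540.6 CPM in LSK libraries. The part of such cells in the members' differences was not tested.

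Mef2c encodes a MADS box factor that takes part in B cell development and in the choice between lymphoid and myeloid fates (chr13:83504034-83667080, plus strand). It had 193, 114 and 98.5 CPM in MP polysomal RNA, against 423 and 127 CPM in LSK polysomal RNA. It had 54.0 and 49.2 CPM in MP total RNA, against 425 and 224 CPM in LSK total RNA. MP total libraries lay far below the LSK total libraries, and in polysomal RNA LSK polysomal 2 lay among the MP libraries. In total RNA the log2 fold change was -2.65 (SE 0.69, adjusted p = 0.0928), and it was -1.02 in polysomal RNA (SE 0.58, adjusted p = 0.409). The call in the mean of both fractions was lost without any one of 6 libraries, with adjusted p of 0.0796 without MP polysomal 2, 0.0708 without MP polysomal 3, 0.124 without MP total 1, 0.13 without MP total 2, 0.0815 without LSK polysomal 1 and 0.0859 without LSK total 1. It held without MP polysomal 1 (0.0368), LSK polysomal 2 (0.0122) or LSK total 2 (0.0388) and was lost without both MP libraries numbered 1 (0.142). The log2 fold change lay between -2.14 and -1.26 over the 9 fits that left out 1 library each.

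The stretches before the 3 RefSeq starts of Mef2c are shown because this gene alone was called and its level ran with that of Tcf4, whose protein binds E-boxes. Each line gives the 250 bases before a start on the plus strand of chromosome 13, read 5′ to 3′ from RefSeq on GRCm38.p6, with E-boxes (CANNTG) in capitals. They span chr13:83503784-83504033, chr13:83523406-83523655 and chr13:83573357-83573606.
Mef2c start 1: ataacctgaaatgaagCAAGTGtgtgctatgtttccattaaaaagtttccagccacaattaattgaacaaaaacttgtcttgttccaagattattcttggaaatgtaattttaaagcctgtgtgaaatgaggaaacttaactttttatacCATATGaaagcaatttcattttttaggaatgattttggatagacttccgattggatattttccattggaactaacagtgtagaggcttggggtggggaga
Mef2c start 2: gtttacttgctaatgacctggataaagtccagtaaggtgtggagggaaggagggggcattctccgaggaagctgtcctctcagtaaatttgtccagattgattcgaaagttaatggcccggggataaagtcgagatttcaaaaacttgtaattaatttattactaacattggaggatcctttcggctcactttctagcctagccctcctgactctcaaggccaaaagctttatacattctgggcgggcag
Mef2c start 3: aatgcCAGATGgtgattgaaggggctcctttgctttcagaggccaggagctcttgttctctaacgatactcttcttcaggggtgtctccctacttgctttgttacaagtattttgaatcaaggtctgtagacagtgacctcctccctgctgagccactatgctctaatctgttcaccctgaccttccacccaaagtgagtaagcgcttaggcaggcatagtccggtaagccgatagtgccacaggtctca

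The stretch before Mef2c start 1 held 2 E-boxes, that before start 3 held 1 and that before start 2 held 0. Of 16 such stretches matched for 8 of the 10 members, 8 held an E-box on either strand, against 66.2% of 32817 stretches of the same length. Tcf4 and Ets1 were not matched. The E protein motif CAGGTG was in 1 of the 16 stretches, before Satb1 (17.2% of all). Being one form of CANNTG, it counts as an E-box too. The Ikaros motif TGGGAA was in 3 (21.6% of all) and the Ets motif CCGGAA in 1, before Tcf3 (12% of all). These letters describe the windows and show no binding.

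Ets1 encodes the founding ETS family factor, active in B, T and natural killer cells (chr9:32636221-32757820, plus strand). It had 46.7, 15.9 and 29.4 CPM in MP polysomal RNA, against 28.8 and 11.1 CPM in LSK polysomal RNA. It had 27.9 and 24.9 CPM in MP total RNA, against 14.0 and 12.4 CPM in LSK total RNA. MP total libraries lay above the LSK total libraries and polysomal libraries overlapped. Log2 fold changes of MP over LSK were 1.00 in total RNA (SE 0.68, adjusted p = 0.515), 0.62 in polysomal RNA (SE 0.63, adjusted p = 0.676) and 0.81 in the mean of both (SE 0.46, adjusted p = 0.34).

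Sox4 encodes an SRY box factor needed by early B cells (chr13:28948919-28953713, minus strand). It had 1.57, 1.49 and 44.0 CPM in MP polysomal RNA and 6.84 and 29.3 CPM in LSK polysomal RNA. It had 1.83 and 48.4 CPM in MP total RNA and 3.56 and 156 CPM in LSK total RNA. High and low libraries stood in every group, with MP polysomal 3, MP total 2, LSK polysomal 2 and LSK total 2 high, and the populations overlapped. The log2 fold change of the mean of both fractions was -0.94 (SE 1.34, adjusted p = 0.755), and the BCV of 1.20 was above that of 98.2% of genes. The exons of Sox4 overlap the noncoding gene Gm26735 on the opposite strand, whose reads cannot be told apart here.

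Id2 encodes the Id protein on which natural killer and innate lymphoid cells depend (chr12:25093799-25097140, minus strand). It had 68.5, 21.8 and 15.8 CPM in MP polysomal RNA, against 20.5 and 12.9 CPM in LSK polysomal RNA. It had 64.9 and 22.1 CPM in MP total RNA, against 22.8 and 32.4 CPM in LSK total RNA. MP polysomal 1 and MP total 1 stood above all other libraries, and the rest of the MP libraries lay within the range of the LSK libraries. The log2 fold change of the mean of both fractions was 0.87 (SE 0.56, adjusted p = 0.403). The same 2 MP libraries had the highest sums of 10 neutrophil markers, 17740.0 and 14290.0 CPM, where the 5 MP libraries ranged from 521 to 17740.0 CPM and the LSK libraries from 443.5 to 2421 CPM; the part of these cells in the Id2 level was not tested.

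Id3 encodes the Id protein that restrains E proteins in T and B cells (chr4:136143497-136145755, plus strand). Its counts were 3, 7 and 8 in MP polysomal and 4 and 59 in LSK polysomal libraries, and 30 and 4 in MP total and 11 and 57 in LSK total libraries. That is at most 0.999 CPM in MP and 2.45 CPM in LSK, and the populations overlapped. The log2 fold change was -2.68 in polysomal RNA (SE 1.25, adjusted p = 0.304), -0.63 in total RNA (SE 1.33, adjusted p = 0.858) and -1.66 in the mean of both (SE 0.92, adjusted p = 0.324).

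The comparison of polysomal with total RNA addresses how messages are spread over ribosome-loaded RNA, and 0 of 10 members passed it in MP or LSK cells. The background was 0% of genes called in each direction, so none of the 16426 genes passed edgeR's test, and DESeq2 and limma called 0 members. Over all genes these tools did make calls, DESeq2 for 30 genes higher and 0 lower in MP cells and 37 higher and 396 lower in LSK cells, and limma for 0 in MP cells and for 8 higher and 478 lower in LSK cells. In MP cells Tcf4 and Mef2c had an unadjusted p under 0.05, against 7.57% of all genes, and in LSK cells 0 members had one, against 12.1%. Tcf4 averaged 78.7 ± 30.2 CPM in MP polysomal RNA (SD, n = 3) and 29.1 ± 8.62 CPM in MP total RNA (SD, n = 2), a log2 fold change of 1.43 (SE 0.64, adjusted p = 0.657). Mef2c averaged 135 ± 50.5 CPM in MP polysomal RNA (SD, n = 3) and 51.6 ± 3.45 CPM in MP total RNA (SD, n = 2), a log2 fold change of 1.39 (SE 0.62, adjusted p = 0.657). The polysomal libraries lay above the total libraries for both genes and for Ikzf1, as for 16.3% of all genes in MP cells.

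In LSK cells Tcf4 averaged 136 ± 109.8 CPM in polysomal and 147 ± 24.1 CPM in total RNA (SD, n = 2 each), a log2 fold change of -0.12 (SE 0.66, adjusted p = 0.958). Mef2c averaged 275 ± 209 CPM in polysomal and 324.5 ± 142 CPM in total RNA of LSK cells (SD, n = 2 each), a log2 fold change of -0.24 (SE 0.65, adjusted p = 0.91). LSK polysomal libraries lay above LSK total libraries for Ikzf1, as for 16.2% of genes, and below them for Id2, as for 20.6%. Ikzf1 had log2 fold changes of polysomal over total RNA of 0.45 in MP (SE 0.44, adjusted p = 0.875) and 0.58 in LSK cells (SE 0.48, adjusted p = 0.67). Those of Id2 were -0.30 in MP (SE 0.74, adjusted p = 0.968) and -0.73 in LSK cells (SE 0.82, adjusted p = 0.765).

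The interaction term asked whether the polysomal over total difference itself differed between MP and LSK cells. It called 0 members and 0% of all genes in either direction, and 0 members against 5.29% of genes had an unadjusted p under 0.05. It was 1.55 for Tcf4 (SE 0.91, adjusted p = 0.877) and 1.63 for Mef2c (SE 0.89, adjusted p = 0.877), and neither passed. On simulated data of the same design the test made no calls of true changes here or for polysomal over total RNA in LSK cells. Of simulated 4-fold changes it called 0% for MP over LSK in total RNA, in polysomal RNA and for polysomal over total RNA in MP cells. Of 16-fold changes it called 32%, 42% and 52% there. For MP over LSK in the mean of both fractions it called 14% of 4-fold and 82% of 8-fold changes. A missed threshold in any of these comparisons therefore does not show that the populations or fractions were alike. The simulations, with 50 genes changed at each fold, also gave false calls of unchanged genes. For MP over LSK these were 11 in the mean of both fractions, 5 in total RNA and 3 in polysomal RNA. Calls of this test, that of Mef2c included, may thus be false ones. The median of the members was -0.04 for polysomal over total RNA in MP cells and -0.05 in LSK cells, with -0.08 and 0.02 for all genes. In the mean of both populations 0 members and 0% of genes passed in either direction, and 0 members had an unadjusted p under 0.05, against 14.9% of genes. DESeq2 called 115 genes higher and 650 lower there and limma 10 higher and 452 lower, with 0 members among them.

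Tcf4 and Mef2c ran together over the 9 libraries more closely than any other members. The Pearson correlation of their log2(CPM + 1) values was 0.979 and Spearman's rho 0.967, as a description over 9 libraries that both genes share. Both were highest in LSK polysomal 1 and LSK total 1 and lowest in MP total 1 and MP total 2. Tcf3 ran the other way, with r of -0.771 to Tcf4 and -0.758 to Mef2c. These pairs share libraries whose base composition differed. The level of Tcf3, whose longest coding transcript is 61.0% G or C, had r of 0.761 with the GC contrast of the library. Tcf4 (40.9%) had -0.725 and Mef2c (40.8%) -0.676. By these contents Tcf3 is among the high-GC genes that define the contrast, and Tcf4 and Mef2c are among the low-GC genes. The signs of these correlations are thus partly set by how the contrast was built.

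**Figure D3:**
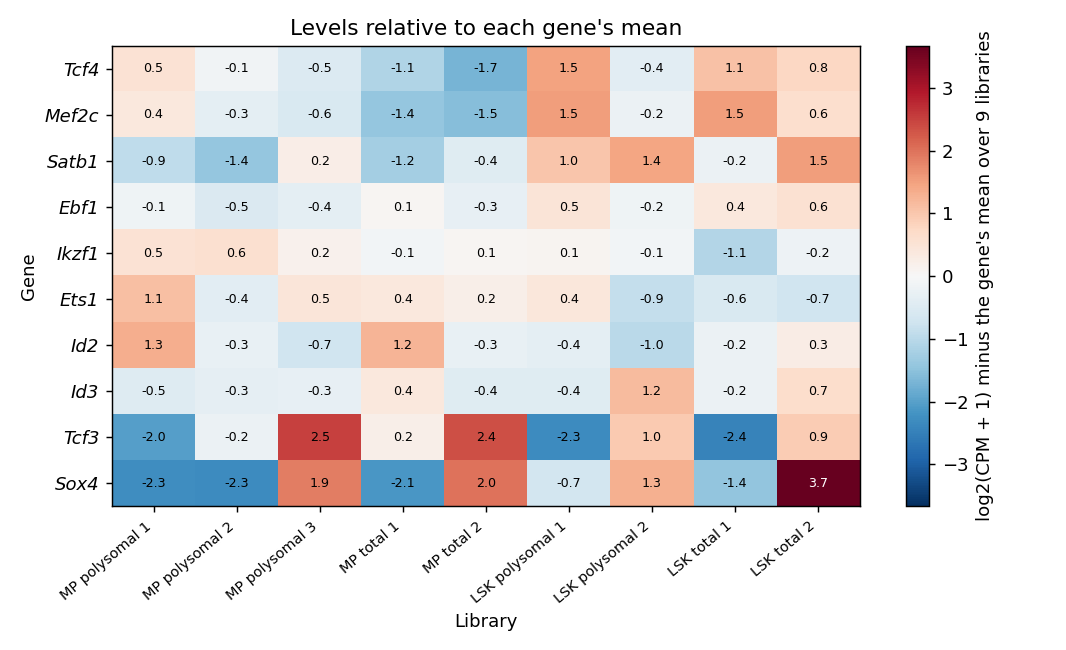
Log2(CPM + 1) of each gene (rows) minus its mean over the 9 libraries (columns, MP then LSK), in colour and as a number in each cell. Tcf4 and Mef2c (r 0.979) follow each other across the columns, and Tcf3 and Sox4 hold the largest deviations.

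The other members followed the GC contrast with r of 0.642 (Id3), 0.446 (Sox4), 0.241 (Satb1), 0.0888 (Ikzf1), -0.353 (Ets1), -0.421 (Id2) and -0.442 (Ebf1), over the same 9 libraries. When each library's GC trend was taken out of the counts, a step added after seeing the data, the log2 fold change of Mef2c in the mean of both fractions was -1.53 (SE 0.35, adjusted p = 0.0196). Tcf4 then had -1.25 (SE 0.36, adjusted p = 0.0493), past the threshold, and Satb1 -1.77 (adjusted p = 0.0654). Mef2c then lay between 60.2 and 167 CPM in the 5 MP libraries and between 174 and 369.6 CPM in the 4 LSK libraries, without overlap, as did 8.9% of genes lower in MP. The ranges of Tcf4 still met, at 28.1 to 97.4 CPM in MP and 87.9 to 187 CPM in LSK.

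Polysomal over total RNA in MP cells moved to 1.04 for Tcf4 (adjusted p = 0.655) and 0.99 for Mef2c (adjusted p = 0.658) without the GC trend. The interaction moved to 0.73 for Tcf4 and 0.78 for Mef2c. The highest over lowest ratio of Tcf3 within a group was then 11.5 in MP polysomal and 3.37 in LSK polysomal RNA, where it had been 24.1 and 10.2. That of Sox4 remained at 29.6 in MP polysomal RNA and was 27.3 in MP total and 46.0 in LSK total RNA.

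**Figure D4:**
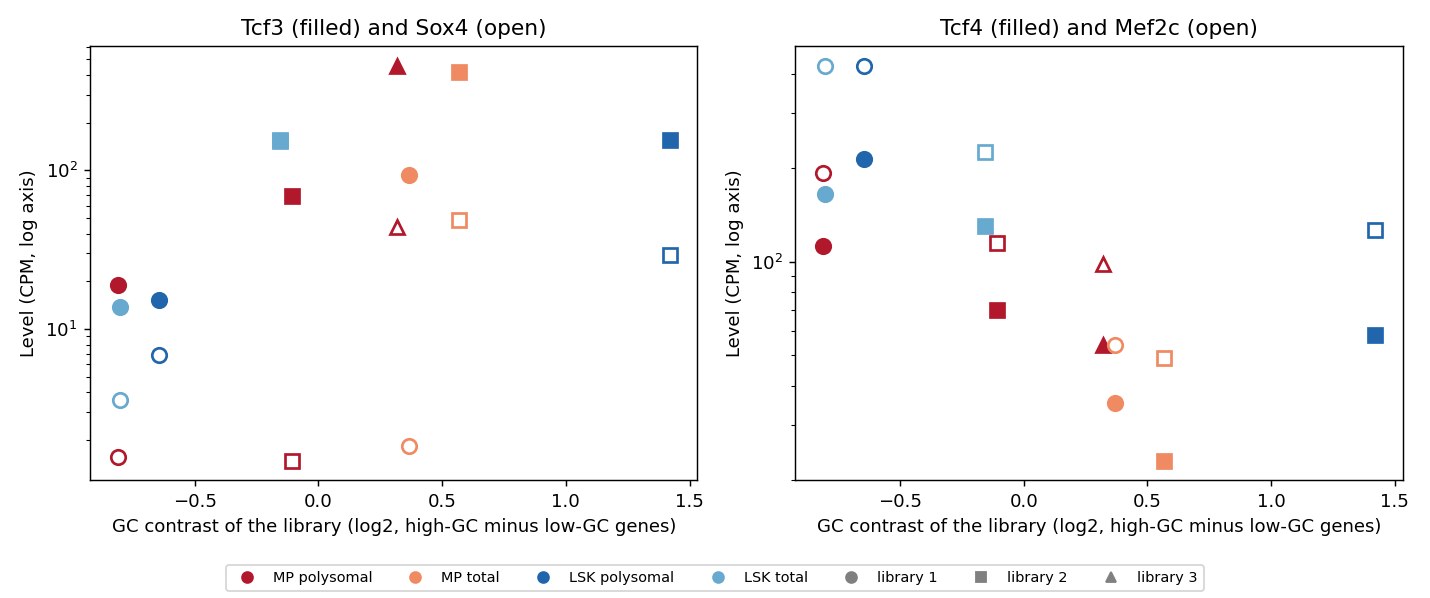
Level in CPM (log axis) against the GC contrast of the library (horizontal axis, log2 of genes of high minus low GC content), for Tcf3 and Sox4 on the left and Tcf4 and Mef2c on the right; each point is 1 of 9 libraries, coloured by group. Tcf3 runs upward (r 0.761) and Tcf4 and Mef2c downward (r -0.725 and -0.676). Tcf3 is among the high-GC genes and Tcf4 and Mef2c are among the low-GC genes that define the contrast, so these signs are partly built in. Where libraries of both populations had a like contrast the MP libraries of Mef2c lie below the LSK libraries.

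The genes most like each member were taken as the 3 highest Pearson correlations of log2(CPM + 1) over the 9 libraries, among 8819 candidate genes (8820 for Ebf1 and Id3) whose mean reached 10 CPM. Tcf4 and Mef2c had the genes Stat4 (0.996 with Tcf4 and 0.987 with Mef2c) and Gbp7 (0.994 and 0.984) in common. Ikzf2, which encodes the Ikaros paralog Helios, also followed Tcf4 (0.984), and Adgrl4 followed Mef2c (0.986). Tcf3 was most like Cyc1 (0.987), Serp1 (0.983) and Irs2 (0.981), and Sox4 most like Rab12 (0.991), Tob1 (0.983) and Rnf130 (0.973). Satb1 was most like Spns2 (0.973), Fam171a1 (0.973) and Mxd4 (0.964). Ikzf1 was most like Slc16a10 (0.963), Mical3 (0.918) and Kmt2b (0.909), and Ets1 most like Cybb (0.892), Cdc45 (0.883) and Itpripl2 (0.879). Id2 was most like Arhgdib (0.909), Tmcc1 (0.906) and Ceacam1 (0.904). For the low Ebf1 the nearest were Ccl3 (0.95), Cd27 (0.924) and Ociad2 (0.919), and for the low Id3 Tmem230 (0.955), Sertad1 (0.953) and Cers5 (0.934).

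E protein RNA was set against Id RNA as the sum of Tcf3, Tcf4 and their paralog Tcf12 over the sum of Id1, Id2 and Id3, in CPM per kb. The ratio was 0.797, 3.06 and 17.6 in MP polysomal RNA, against 3.79 and 6.70 in LSK polysomal RNA. It was 0.919 and 10.9 in MP total RNA, against 2.36 and 4.09 in LSK total RNA. The MP libraries spread below and above all LSK libraries of the same fraction, so no direction between the populations can be read. Id2 made up 66.0% to 98.2% of the Id sum in every library. Tcf3 over Tcf4 ranged from 0.491 to 52.3 in MP libraries and from 0.208 to 7.74 in LSK libraries, with the lowest value of each population in a library numbered 1.

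Of 17 paralogs of the members, 12 were tested, and 0 were higher and 1 lower in MP cells in the mean of both fractions, near the 2.72% of all genes called higher and 7.37% called lower. Their median log2 fold change was -0.10, and that of all genes -0.01. The one that fell was Ikzf4, which encodes the Ikaros relative Eos, by 2.66 (SE 0.69, adjusted p = 0.0397). Its means were low, at 0.142 CPM in MP polysomal and 0.818 CPM in LSK polysomal RNA, and 0.262 CPM in MP total and 1.87 CPM in LSK total RNA. Ikzf2 had -1.87 (SE 0.52, adjusted p = 0.0501), just short of the threshold, and Id1 had 2.00 (SE 0.80, adjusted p = 0.16).

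Among 23 other transcription factors of lymphoid cells, 22 were tested, and 5 were lower and 0 higher in MP cells, with a median log2 fold change of -0.81, against 7.37% of all genes called lower, 2.72% called higher and a median of -0.01. Tox, a factor of T cell and innate lymphoid development, fell by 4.82 (SE 0.50, adjusted p = 0.00145). It averaged 1.11 CPM in MP polysomal and 39.1 CPM in LSK polysomal RNA, and 1.07 CPM in MP total and 24.7 CPM in LSK total RNA. Gata3, which directs early T cells, fell by 3.96 (SE 0.45, adjusted p = 0.0017), and Pou2af1, a B cell coactivator, fell by 3.63 (SE 0.58, adjusted p = 0.00558). Irf4, a factor of activated B cells and plasma cells, fell by 2.70 (SE 0.65, adjusted p = 0.0289). Within the fractions 2 of the 22 passed in total and 4 in polysomal RNA, all lower in MP.

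Of 16 genes that members are known to act on in lymphoid precursors, 14 were tested, and 7 were lower and 0 higher in the mean of both fractions, with all 14 log2 fold changes negative and a median of -2.42, against 7.37% of all genes called lower, 50.5% negative and a median of -0.01. Dntt, the polymerase that adds bases to rearranging receptor genes, fell by 4.67 (SE 0.49, adjusted p = 0.00147). Its means were 16.1 CPM in MP polysomal and 603 CPM in LSK polysomal RNA, and 12.6 CPM in MP total and 217 CPM in LSK total RNA. Flt3, a cytokine receptor of lymphoid-primed progenitors, fell by 3.85 (SE 0.57, adjusted p = 0.00411). Its means were 29.4 CPM in MP polysomal and 874 CPM in LSK polysomal RNA, the latter with an SD of 848.5 CPM (n = 2). In total RNA its means were 32.2 CPM in MP and 225 CPM in LSK cells, and it did not pass edgeR's test there (adjusted p = 0.123). Blnk (-2.49, SE 0.41, adjusted p = 0.00649) and Cd79a (-2.95, SE 0.54, adjusted p = 0.00946), both parts of B cell receptor signalling, fell as well, with at most 1.34 CPM for a group mean in MP and 8.67 CPM in LSK. The other 3 were Ccr9, Vpreb3 and Il7r. Cd79a and Cd79b of this list also stand in the B cell markers, whose sums moved with the populations. Within the fractions 1 of the 14 was lower in total and 4 in polysomal RNA. For all 3 lists, 0 genes passed between polysomal and total RNA or in the interaction.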

How the data were processed

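The authors deposited raw counts, whole numbers with a row for each gene symbol, over 9 libraries. Per the submitters' processing notes, the tools were bcl2fastq, STAR, featureCounts and DESeq2, with builds GRCm38 and mm10. Of tool versions, gene annotation and strand use, nothing is given in the sources used here. Overlapping or antisense genes may therefore take each other's reads. A second table that the authors deposited, of normalized log2 values, served only as an alternative. Columns were matched to samples by title, and the groups come from the titles.

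The main test was the quasi-likelihood test of edgeR 4.0.16 in R 4.3.3. Low genes were removed by filterByExpr (minimum count 10 and minimum total 15 over 4 groups), leaving 16426 of 47480. CPM use library sizes with TMM factors. All 9 libraries entered 1 model with 4 group means, on 5 residual and 4.58 prior degrees of freedom. It gave 7 two-sided comparisons: MP over LSK cells in total RNA, in polysomal RNA and in their mean, polysomal over total RNA in MP, in LSK and in their mean, and the interaction. P-values carry the Benjamini-Hochberg adjustment over all tested genes, at a threshold of 0.05. Exact permutation tests within a fraction could not pass that threshold and were not used.

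Alternatives were relative log expression factors, library totals alone, no filter, DESeq2 1.42.0, limma 3.58.1 on the deposited log2 values, a fit of the compared groups alone, a block for the library number, and libraries left out. Removal of each library's GC trend was added after seeing the data, and GC content was known for 96.5% of tested genes. Positions and lengths are those of GENCODE M21 on GRCm38, and promoter stretches are from RefSeq on GRCm38.p6, the 250 bases before each start. The text names all 10 members, the 3 genes most alike to each, and up to 4 genes of each list by p-value, with further called genes added after their values were seen. The members and lists were chosen with earlier results of these data known. The fit was tested on simulated data, where the interaction and polysomal over total RNA in LSK cells made no calls of true changes. The median BCV was 0.558, so for members other than Ebf1 and Id3 the spread between libraries and not the depth set the precision. Ebf1 and Id3 were limited by low counts as well. Floors cover counting error only. A called gene of the lists is not reported here by name.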

Additional observations from a re-analysis of the deposited data

How the results depend on the processing

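Over 40 single-gene results and 19 settings, 682 values kept their direction and side of the threshold, 33 reversed, 24 newly passed and 7 no longer passed. Members called in total RNA, 0 with edgeR, were 2 without the filter and 2 with DESeq2 (Tcf4 and Mef2c), and 1 (Mef2c) with the replicate block, without both LSK libraries numbered 2 and with limma, and 0 to 1 when single libraries were left out. Members called in the mean of both fractions, 1 with edgeR, were 3 with library totals, 3 with DESeq2 and 3 with the replicate block (Satb1, Tcf4 and Mef2c), 4 without the filter (these and Tcf3), 2 with limma (Satb1 and Mef2c), 2 without both LSK libraries numbered 2 and 2 with the GC trend removed (Tcf4 and Mef2c), 0 without the MP libraries numbered 1, and 0 to 2 when single libraries were left out. Without the filter Tcf3 was called higher in MP cells, and Satb1, Tcf4 and Mef2c were called lower. The cause of these shifts between settings was not tested. Over all genes, calls in total RNA were 165 higher and 405 lower with the replicate block, 377 and 1094 with DESeq2, 325 and 881 without the filter and 138 and 712 with limma, 0 and 0 with the compared groups alone and in 7 of the 9 fits without 1 library, against 45 and 134 with edgeR. In polysomal RNA they were 529 and 1095 with DESeq2, 379 and 1179 without the filter, 38 and 266 with the compared groups alone, 112 and 306 with the replicate block and 0 and 0 without MP polysomal 1 or 2, against 86 and 465, and in the mean of both fractions 893 and 1813 with DESeq2, 842 and 1794 without the filter, 120 and 264 without the MP libraries numbered 1, and 203 to 473 and 449 to 1125 without single libraries, against 447 and 1210. For polysomal over total RNA, where edgeR called 0 genes, no filter gave 6 and 16 in MP cells, 73 and 474 in LSK cells and 93 and 750 in their mean. Fitting the compared groups alone is the same fit for the mean and the interaction.

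Some log2 fold changes that had not passed reversed. In total RNA, MP over LSK, Id3 was 0.16 with the replicate block and 0.80 without both LSK libraries numbered 2, Sox4 2.82 without these, and Id2 -0.30 without both MP libraries numbered 1. In polysomal RNA Tcf3 was -0.41 with the replicate block, Sox4 1.20 and Id3 0.56 without both LSK libraries numbered 2, and Sox4 0.36 without both MP libraries numbered 1. In the mean of both fractions Sox4 was 2.01 and Id3 0.68 without both LSK libraries numbered 2, and Id2 -0.065 without both MP libraries numbered 1. For polysomal over total RNA, Id2 in MP cells was 0.029 with the replicate block, and in LSK cells Tcf4 was 0.38 without both LSK libraries numbered 2 and 0.31 without the GC trend, and Mef2c 0.21 without the GC trend.

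With single libraries left out, MP over LSK in total RNA ranged from -5.43 to 2.82 for Sox4, from -0.30 to 1.24 for Id2 and from -2.69 to 0.80 for Id3. In polysomal RNA it ranged from -0.96 to 3.58 for Tcf3, from -1.44 to 0.53 for Tcf4, from -1.64 to 0.20 for Mef2c, from -3.56 to 1.21 for Sox4 and from -3.48 to 0.56 for Id3. In the mean of both it ranged from -2.81 to 1.31 for Sox4. Polysomal over total RNA ranged from -1.17 to 0.68 for Id2 in MP cells, and in LSK cells from -1.46 to 0.55 for Tcf4 and from -1.49 to 0.39 for Mef2c.

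The check of the pairing by library number was mixed. Deviations of same-numbered libraries from their group means correlated at 0.511 (MP polysomal and total 1), 0.481 (LSK polysomal and total), 0.715 (MP and LSK total) and 0.691 (MP and LSK polysomal 1), but at -0.558 for MP polysomal and total 2 and -0.0832 for MP and LSK polysomal 2, and MP polysomal 3 was like MP total 2 (0.72). In groups of 2 libraries the deviations mirror each other, and in the group of 3 they sum to 0, so the signs are partly fixed by the centring. The check therefore cannot show whether same-numbered libraries share a lysate or sort. As the labels do not say either, the samples were taken to share only a number. Low counts limit Ebf1 and Id3, and the spread between libraries limits all members, Id3 included (BCV 0.898).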
